A study of Mus musculus with 56 samples.

Results

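Gastrocnemius muscle of mice that had breathed sham air for 12 weeks was compared with that of mice that had breathed it for 2 weeks. The members are the 12 arrays whose source label gives 12 or 2 weeks of FA, an abbreviation that the sources used here do not spell out, among 56 arrays in all. It is read here as sham air, since the treatment protocol names air as the sham exposure beside cigarette smoke; no label ties the abbreviation to it. There were 6 mice at 12 weeks and 6 at 2 weeks, all female C57BL/6 from Jackson Laboratory, and each array held RNA of 1 mouse. On that reading both groups sat through nose-only air sessions of 2 hours a day, 5 days a week, with no cigarette smoke, so that the comparison is one of times without smoke. The other groups that the results draw on had smoke for 12 weeks (8 arrays of 7 mice) or 2 weeks (6 arrays), sham air for 24 weeks (6 arrays), or no treatment at week 0 (6 arrays). The ages of the mice are not given in the sources used here, nor is whether the arrays of the groups were processed together. Weeks of exposure cannot be told apart from age, from the day on which a group's tissue was collected or from array processing.

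The gastrocnemius is a calf muscle in which fast fibres dominate and slow, oxidative fibres lie mainly in its deep part. After birth a mouse muscle grows by enlarging its fibres, sheds most embryonic isoforms of the sarcomere proteins and settles its fibre types and metabolic enzymes. Between the fibres lie vessels, fibroblasts that lay down matrix, resident macrophages and nerve endings, and their RNA is measured together with that of the fibres. In such bulk tissue, fewer cells of a type and less RNA per cell cannot be told apart.

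Levels below are log2(intensity + 16) of the probe set with the highest mean for each gene, so that a difference of 1 is a doubling of a bright gene and understates the change of a dim one. A gene passed where limma's moderated test, fitted to all 9 groups of the series together, gave a Benjamini-Hochberg adjusted p under 0.05 over the 12351 genes tested. The defining fibre genes were bright and level: the mean of 12 fibre markers was 13.38 to 13.43 in the 12-week mice and 13.34 to 13.42 in the 2-week mice. Glycam1, an adhesion glycoprotein of lymph node vessels, stood apart in 12 of the 56 arrays, with intensities of 6944 or more against 307 or less in the other arrays. Among the sham air mice at these times, 2-week replicate 3 alone lay above 2000, with an intensity of 9463. The 12-week mice had 14.3 to 46.0, and the other 2-week mice 10.7 to 42.5. That array also had the highest mean of the 11 measured lymphocyte markers, 9.27 against 4.97 to 5.18 in the other 2-week mice, and of the 10 adipocyte markers, 11.4 against at most 10.3. Its mean of 5 mammary and secretory epithelium markers was 9.55. The other 2-week mice had 6.0 to 7.53 and the 12-week mice 5.90 to 6.44, so that the highest of these 2-week mice lay above every 12-week mouse. Without the 12 arrays of high Glycam1 all 5 of these markers were lower at 12 weeks, with a median difference of -0.42, and none passed. The part of such tissue in the other differences was not tested. Values below leave those 12 arrays out unless all arrays are named, and of the genes described Golm1 alone also passed with all arrays.

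With all arrays, 1 gene passed between 12 and 2 weeks, Golm1, which was lower at 12 weeks (0.00810% of the genes tested), and 765 genes (6.19%) had an unadjusted p under 0.05. Without the 12 arrays of high Glycam1, 73 genes were higher at 12 weeks (0.591%) and 39 lower (0.316%), together 0.907% of the genes tested, and 1887 genes (15.3%) had an unadjusted p under 0.05. Each of the 73 and 39 differed in the same direction with all arrays, which include the mice in which they were picked. The changes were small, with folds of 1.1 to 2.14 and a median of 1.3. By more than 0.5 on the log2 scale, 23 genes were higher and 18 lower. In 80 of the genes that passed the 12-week and 2-week mice did not overlap, while the same held for 2.66% of all genes tested. These genes were picked for their difference between the same mice, so that a lack of overlap was likely and adds no support.

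The size of that set varied with the mice that entered the fit. Leaving out only 2-week replicate 3, with the arrays of high Glycam1 kept in the other groups, let 2 genes pass. The 6 mice of 12 weeks and 5 of 2 weeks fitted alone gave 11 genes, 5 higher and 6 lower. Leaving out a further mouse of either group gave as few as 5 higher and 5 lower genes (without 2-week replicate 6) and as many as 102 higher and 67 lower (without 12-week replicate 5). The 73 and 39 genes were picked in the same mice and so were likely to keep their direction. They did so in every one of these 11 fits, and 10 of them passed in every one. Among the genes described below these were Golm1, Ccdc88c, 2310015K22Rik, Gdpd1, Lrtm1, Ramp2 and Adgrl4. Without 12-week replicate 1, 21 of the 73 and 24 of the 39 still passed. Centring each array on its median let 189 genes pass, 167 higher and 22 lower, so that the balance of higher to lower is open to the scaling.

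Golm1, a membrane protein of the Golgi, was the gene that passed with and without the arrays of high Glycam1. The 12-week mice had levels of 9.49 at the lowest, 9.60 at the median and 9.91 at the highest. The 2-week mice, the high Glycam1 array included, lay between 10.10 and 10.27. Every 12-week mouse was below every 2-week mouse. The difference was -0.59 with all arrays (adjusted p = 0.0049, limma) and -0.59 ± 0.10 (SE) without those of high Glycam1 (1.51-fold, adjusted p = 0.0034). It passed in each of 25 alternative fits, with differences of -0.65 to -0.55. It did not pass with the number in the mouse names as a block, an alternative added after the data were seen (-0.59 ± 0.12, adjusted p = 0.28 with all arrays).

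Around Golm1, the genes of lowest p on the lower side with all arrays belonged to unlike roles. Ccdc88c, a signalling protein that binds Dishevelled, had 9.57, 9.72 and 9.85 (lowest, median, highest) at 12 weeks and 9.93, 10.06 and 10.13 in the 5 mice at 2 weeks, with a difference of -0.33 ± 0.06 (adjusted p = 0.0069, and 0.057 with all arrays). Nabp1, a protein that binds single-stranded DNA, had 9.67, 10.40 and 10.48 at 12 weeks against 10.59, 10.91 and 11.05 at 2 weeks (-0.59 ± 0.12, adjusted p = 0.014, and 0.057 with all arrays). Neither pair of groups overlapped. All 6 probe sets of Nabp1 were lower at 12 weeks, by 0.46 to 0.69 in size, and so were all 4 of Ccdc88c.

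The RIKEN transcript 2310015K22Rik had the largest fold among the genes that passed. It had 6.06, 6.52 and 7.12 at 12 weeks and 7.32, 7.67 and 7.97 in the 5 mice at 2 weeks, without overlap, a difference of -1.10 ± 0.19 (2.14-fold, adjusted p = 0.0034, and 0.12 with all arrays). The high Glycam1 array, at 6.89, lay inside the 12-week range. Il12a, a subunit of interleukin 12 (-0.74 ± 0.17, adjusted p = 0.021), Kcnu1, a potassium channel known from sperm (-0.69 ± 0.15, adjusted p = 0.017), and Noxred1 (-0.61 ± 0.14, adjusted p = 0.031) were also lower, each without overlap but at dim levels below 8. Nppc, the precursor of C-type natriuretic peptide, also had non-overlapping groups, with 5.40 to 6.39 at 12 weeks and 6.85 to 6.98 at 2 weeks, and just missed the threshold (-0.88 ± 0.24, adjusted p = 0.057).

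On the higher side Gdpd1, of the glycerophosphodiester phosphodiesterase family, led. It had 10.80, 10.89 and 11.17 at 12 weeks against 10.30, 10.49 and 10.53 in the 5 mice at 2 weeks, without overlap, a difference of 0.48 ± 0.08 (adjusted p = 0.0034, and 0.058 with all arrays). Tor3a, a torsin (0.48 ± 0.09, adjusted p = 0.011), Stmn2, a regulator of microtubules known from neurons (0.68 ± 0.13, adjusted p = 0.011), and Glrx, the thiol-disulfide enzyme glutaredoxin (0.33 ± 0.08, adjusted p = 0.039), were higher too. Slc35f6, a solute carrier (0.27 ± 0.06, adjusted p = 0.017), and the long noncoding RNA Morrbid (0.38 ± 0.09, adjusted p = 0.036) also rose. Without 12-week replicate 1, Glrx (adjusted p = 0.058), Slc35f6 (0.06) and Morrbid (0.11) did not pass. Miat, another long noncoding RNA (0.84 ± 0.24, adjusted p = 0.076), and Arsi, an arylsulfatase (0.52 ± 0.15, adjusted p = 0.069), did not pass.

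**Figure D1:**
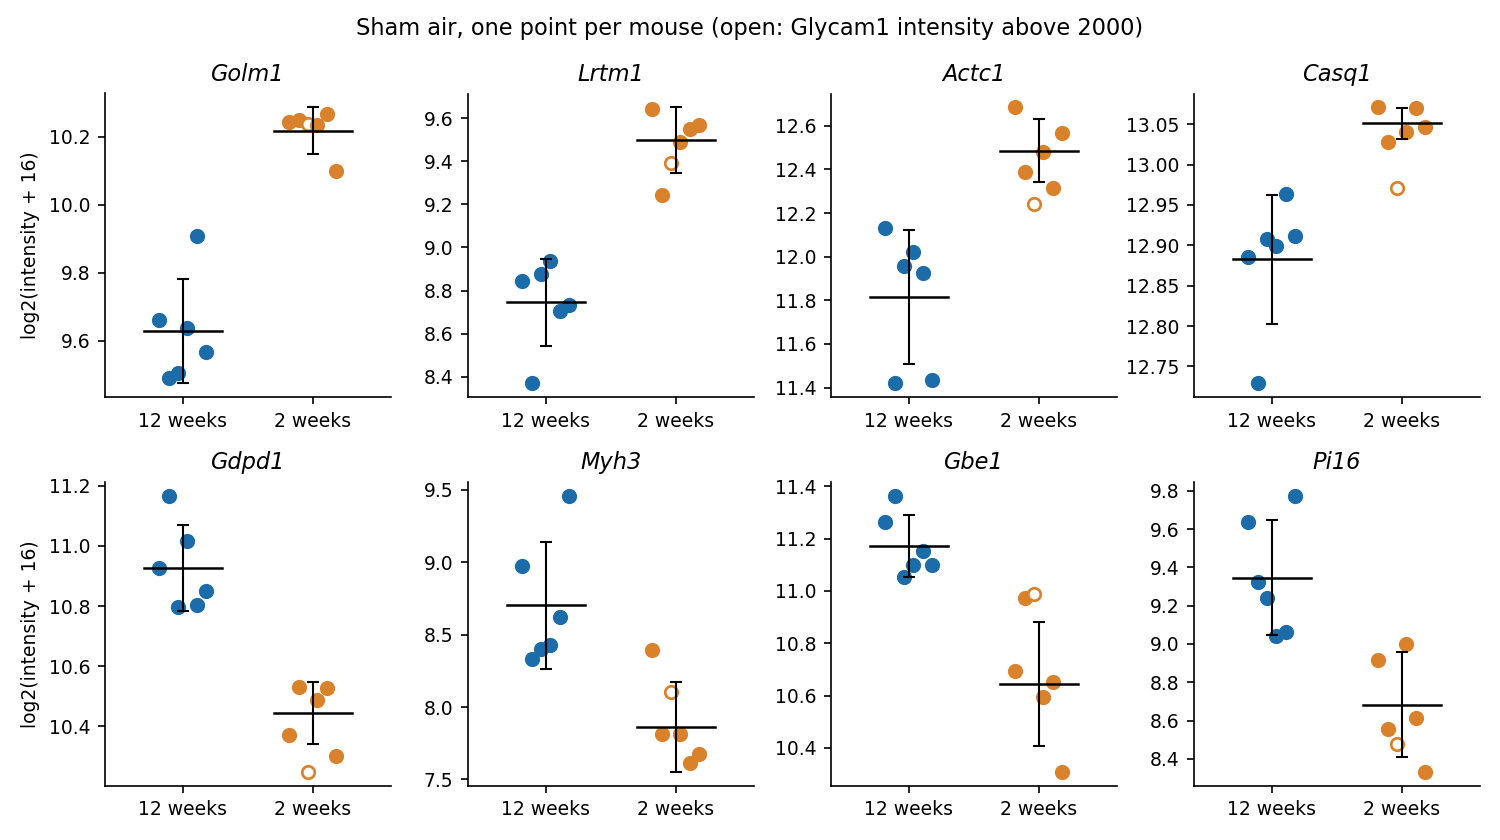
Level of 8 genes in each sham air mouse (y axis, log2(intensity + 16); 12 weeks left, 2 weeks right). Bars are means ± SD without the open point, the array of high Glycam1; in all but Myh3 the filled points of the groups do not overlap.

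Among the 14 measured genes of embryonic and neonatal muscle, 2 passed, beside 0.907% of all genes tested, and they moved in opposite directions. Actc1, the cardiac alpha-actin that developing skeletal muscle also makes, had 11.42, 11.94 and 12.13 at 12 weeks against 12.32, 12.48 and 12.69 in the 5 mice at 2 weeks. It was lower in every 12-week mouse, by -0.67 ± 0.16 (1.59-fold, adjusted p = 0.034, and 0.76 with all arrays). Myh3, the embryonic myosin heavy chain, had 8.33, 8.53 and 9.46 at 12 weeks and 7.62, 7.81 and 8.39 at 2 weeks. It was higher by 0.84 ± 0.19 (1.79-fold, adjusted p = 0.019, and 0.24 with all arrays), with a small overlap between the groups. Without 12-week replicate 1 it was 0.79 (adjusted p = 0.055). The neonatal heavy chain Myh8 (0.25, adjusted p = 0.70) and the embryonic acetylcholine receptor subunit Chrng (0.38, adjusted p = 0.35) did not pass. Over the list 11 of 14 differences were above 0, with a median of 0.21, where all genes tested had 6838 of 12351 above 0 and a median of 0.01.

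The promoters of Actc1 and Myh3 are shown because these sarcomere genes parted ways. The windows run from 250 bases before to 50 bases after the start in RefSeq (build GRCm38.p6), chr2:114052826-114053125 on the minus strand and chr11:67078050-67078349 on the plus strand, each read 5′ to 3′ along the gene. Capitals mark the CArG box, the motif of serum response factor, in Actc1 (at position -47 from the start) and TATAAA in Myh3 (at -29).
Actc1: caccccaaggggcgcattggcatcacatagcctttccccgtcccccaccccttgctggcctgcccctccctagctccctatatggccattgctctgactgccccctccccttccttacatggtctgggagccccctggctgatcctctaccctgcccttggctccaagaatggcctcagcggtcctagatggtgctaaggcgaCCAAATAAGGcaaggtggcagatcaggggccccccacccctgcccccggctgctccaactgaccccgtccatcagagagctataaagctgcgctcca
Myh3: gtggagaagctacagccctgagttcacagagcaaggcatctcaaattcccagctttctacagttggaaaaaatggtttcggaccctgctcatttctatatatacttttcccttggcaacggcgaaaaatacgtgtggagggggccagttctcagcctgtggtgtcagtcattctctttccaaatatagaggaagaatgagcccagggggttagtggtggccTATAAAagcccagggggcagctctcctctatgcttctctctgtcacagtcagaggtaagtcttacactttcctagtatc
On both strands the Actc1 window held 1 CArG box and 1 TATAAA, which did not overlap, and the Myh3 window 1 TATAAA and 0 CArG boxes. The TATAAA of Actc1 lies after the start used, within the last 50 bases, so that -47 is counted from that start alone. Of the 32851 RefSeq promoter windows of this length, 1.63% held a CArG box and 13.6% TATAAA.

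All 15 slow fibre genes were higher on average at 12 weeks, with a median difference of 0.40 without the arrays of high Glycam1 and 0.42 with all, and none passed (6 of 15 had an unadjusted p under 0.05 and were higher, as had 9.71% of all genes tested). Csrp3, a Z-disc protein of slow and stressed fibres, differed by 0.62 ± 0.27 (adjusted p = 0.27), the slow myosin heavy chain Myh7 by 0.40 ± 0.22 (adjusted p = 0.41), its light chain Myl2 by 0.33 ± 0.14 (adjusted p = 0.25) and the slow calsequestrin Casq2 by 0.52 ± 0.20 (adjusted p = 0.19). Mouse by mouse, the mean of the list was 11.39, 11.93 and 12.18 (lowest, median, highest) at 12 weeks and 11.14, 11.54 and 11.70 in the 5 mice at 2 weeks. The lowest 12-week mouse, replicate 5, lay inside the 2-week range and the other 5 above it. Where in the gastrocnemius each section was cut is not stated, and its part in these values was not tested.

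The fast fibre list hardly moved as a whole: 7 of 15 differences were above 0, the median was 0.00, and the main fast heavy chain Myh4 differed by -0.02 ± 0.03 (adjusted p = 0.87). The mean of the list was 13.46 to 13.50 at 12 weeks and 13.44 to 13.49 in the 5 mice at 2 weeks, the brightest of the lists. Whether signals so bright could show a larger difference was not tested. Differences of its members ran from -0.17 to 0.23. At an unadjusted p under 0.05, 2 of the 15 were higher and 3 lower (9.71% and 5.57% of all genes tested). Only 1 passed, on the lower side (0.316% of all genes tested): Casq1, the calsequestrin that stores calcium in the reticulum of fast fibres. Casq1 had 12.73, 12.90 and 12.96 at 12 weeks and 13.03, 13.05 and 13.07 at 2 weeks, lower in every 12-week mouse by -0.17 ± 0.04 (1.12-fold, adjusted p = 0.017, and 0.3 with all arrays). The high Glycam1 array, at 12.97, was just above the highest 12-week mouse. Outside the list, a pair of enzymes known from fast glycolytic muscle were also lower without overlap: Ampd1, the muscle AMP deaminase (-0.15 ± 0.03, adjusted p = 0.019), and Prkag3, a gamma subunit of AMP-activated kinase (-0.32 ± 0.07, adjusted p = 0.032). These were chosen after their values were seen.

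**Figure D2:**
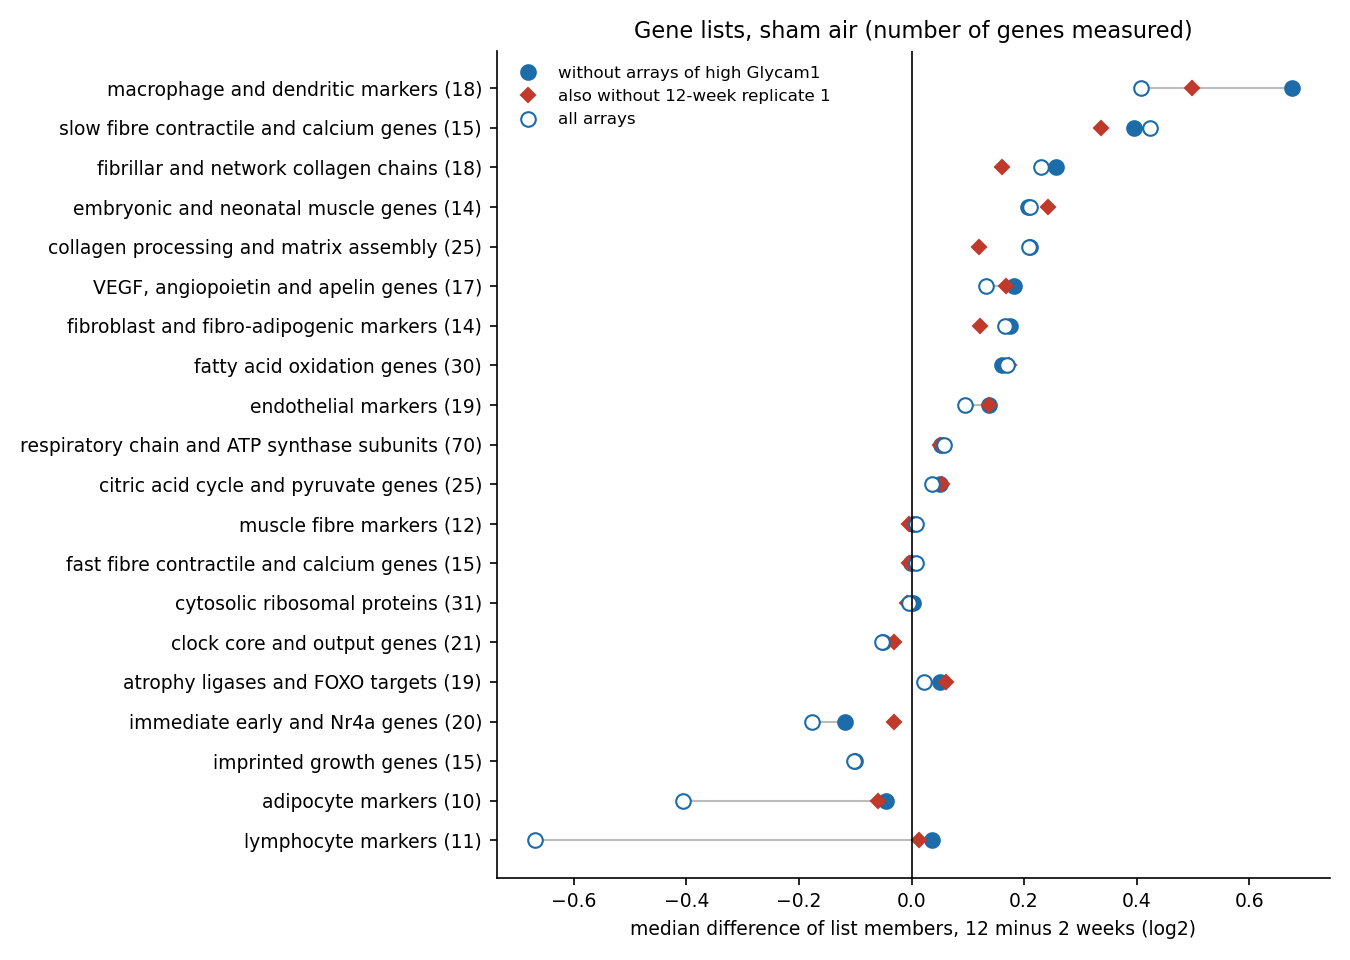
Median difference of the measured members of 20 gene lists, 12 minus 2 weeks (x axis, log2), with all arrays (open circles), without those of high Glycam1 (filled circles) and also without 12-week replicate 1 (diamonds). Macrophage markers and slow fibre genes lie farthest right in each fit, and the adipocyte median shifts toward 0 once the arrays of high Glycam1 are left out. The lymphocyte list is at background outside those arrays.

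Fatty acid oxidation genes stood higher at 12 weeks in 28 of 30 cases, with a median of 0.16 (0.17 with all arrays). Of these 16 had an unadjusted p under 0.05, beside 9.71% of all genes tested on the higher side, and 1 passed, beside 0.591%. That was Acadm, the medium-chain acyl-CoA dehydrogenase, with 12.36, 12.42 and 12.55 at 12 weeks against 12.20, 12.24 and 12.32 at 2 weeks, a difference of 0.18 ± 0.05 without overlap (adjusted p = 0.041). The call was lost with all arrays (adjusted p = 0.69) and without 12-week replicate 1 (0.095). Close below it came Acaa2, the last enzyme of a round of mitochondrial beta-oxidation (0.25 ± 0.07, adjusted p = 0.076), and Plin5, which ties lipid droplets to mitochondria (0.75 ± 0.25, adjusted p = 0.12). The 12-week mice spanned 10.88 to 11.22 in the mean of the list and the 2-week mice 10.60 to 10.93, so that the groups overlapped. Of the respiratory chain and ATP synthase subunits 65 of 70 lay above 0, but their median was 0.05 and no subunit passed. Likewise 21 of 25 citric acid cycle and pyruvate genes lay above 0, with a median of 0.05.

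In the glycolysis and glycogen list 1 of 24 genes passed, beside 0.591% of all genes tested on the higher side: Gbe1, the glycogen branching enzyme. It had 11.06, 11.13 and 11.36 at 12 weeks and 10.31, 10.65 and 10.97 in the 5 mice at 2 weeks, higher by 0.53 ± 0.11 without overlap (1.44-fold, adjusted p = 0.014, and 0.51 with all arrays). The list's median was 0.02, and 4 of its genes were higher and 2 lower at an unadjusted p under 0.05 (9.71% and 5.57% of all genes tested). Fitm2, which helps lipid droplets form (0.28 ± 0.06, adjusted p = 0.014), and Insr, the insulin receptor (0.21 ± 0.05, adjusted p = 0.032), were higher, and Gamt, the last enzyme of creatine synthesis, was lower (-0.82 ± 0.18, adjusted p = 0.017). Insr did not pass without 12-week replicate 1 (adjusted p = 0.062). These were chosen after their values were seen.

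Of the 14 measured fibroblast and fibro-adipogenic markers, 5 passed on the higher side (0.591% of all genes tested did) and 0 on the lower side (0.316%). Pi16, which marks progenitor-like fibroblasts, had 9.04, 9.28 and 9.77 at 12 weeks and 8.33, 8.62 and 9.0 in the 5 mice at 2 weeks, a difference of 0.66 ± 0.17 without overlap (adjusted p = 0.039). Dpp4, a surface peptidase of the same cells (0.62 ± 0.16, adjusted p = 0.040), Cd248, or endosialin (0.55 ± 0.13, adjusted p = 0.036), the microfibril protein Mfap5 (0.54 ± 0.13, adjusted p = 0.039) and the ectonucleotidase Entpd2 (0.34 ± 0.09, adjusted p = 0.040) changed likewise. With all arrays their adjusted p was 0.21 to 0.76. The list as a whole was mixed, with 11 of 14 above 0, 3 below, of which 1 had an unadjusted p under 0.05, and a median of 0.18 (0.17 with all arrays). Pdgfra, the receptor by which these cells are sorted, did not pass (0.34 ± 0.09, adjusted p = 0.059). Without 12-week replicate 1, in which Dpp4 was 10.53 against 9.91 to 10.00 in the other 12-week mice, none of the 5 passed: Pi16 was 0.60 (adjusted p = 0.11) and Dpp4 0.53 (adjusted p = 0.12).

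Of 18 collagen chains 17 leaned to the higher side at 12 weeks, by a median of 0.26 (0.23 with all arrays), but no chain passed. At an unadjusted p under 0.05, 7 were higher (9.71% of all genes tested) and 0 lower (5.57%). Col5a1 (0.44 ± 0.12, adjusted p = 0.062) and the basement membrane chain Col4a2 (0.33 ± 0.10, adjusted p = 0.078) came nearest, while Col1a1, the main fibrillar chain, differed by 0.01 ± 0.10 and Col3a1 by 0.26 ± 0.17. A dimmer probe set above the filter differed by 0.20 for Col1a1 and by 0.59 for Col3a1. Without 12-week replicate 1 the median was 0.16, with 16 of 18 above 0 and 4 higher at an unadjusted p under 0.05 (7.59% of all genes in that fit). Tnxb, or tenascin X, passed outside the list (0.41 ± 0.10, adjusted p = 0.032), as did Egflam, an extracellular matrix protein, which was lower (-0.53 ± 0.11, adjusted p = 0.016). Tnxb did not pass without 12-week replicate 1 (adjusted p = 0.079). Both were chosen after their values were seen.

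Receptors and ligands of vessel growth held 2 genes that passed among 17 (0.591% of all genes tested passed on this side), both higher at 12 weeks. Angpt1, the ligand that activates the receptor Tek, had 9.02, 9.28 and 9.47 at 12 weeks and 8.74, 8.83 and 9.0 at 2 weeks, without overlap (0.39 ± 0.09, adjusted p = 0.023, and 0.69 with all arrays). Flt4, a receptor for VEGF-C found on lymphatic and some blood vessels, had 8.11, 8.40 and 8.62 against 7.77, 7.97 and 8.11 at 2 weeks (0.45 ± 0.11, adjusted p = 0.035, and 0.59 with all arrays). Flt4 did not pass without 12-week replicate 1 (adjusted p = 0.072). The high Glycam1 array, left out of these values, had 8.40. The list's median was 0.18, with 14 of 17 above 0, and Vegfa (0.15, adjusted p = 0.49) did not pass. The other probe set of Angpt1, a dimmer one, differed by 0.09. All 19 endothelial markers leaned the same way, by a median of 0.14, and no marker passed. With all arrays 17 of the 19 did, by a median of 0.10. Outside both lists Ramp2, a partner of the adrenomedullin receptor (0.38 ± 0.07, adjusted p = 0.0034), Adgrl4, an adhesion receptor of endothelium (0.40 ± 0.08, adjusted p = 0.0088), and Mmrn2, an endothelial matrix protein (0.36 ± 0.08, adjusted p = 0.016), were higher. They were chosen after their values were seen. With all arrays their adjusted p was 0.44, 0.54 and 0.88.

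Macrophage and dendritic markers had a list median of 0.68, and 0.41 with all arrays. All 18 measured markers were above 0 and 16 had an unadjusted p under 0.05 (9.71% of all genes tested did on the higher side), yet none passed, and the mice of each group differed widely. Cd68, a lysosomal protein of macrophages, had 8.08, 8.28 and 9.76 at 12 weeks against 6.73, 7.42 and 8.38 in the 5 mice at 2 weeks (1.01 ± 0.35, adjusted p = 0.14). Csf1r, the receptor for the macrophage growth factor CSF1, differed by 0.70 ± 0.24 (adjusted p = 0.13), Lyve1, found on lymphatic vessels and on a class of resident macrophages, by 0.68 ± 0.20 (adjusted p = 0.080) and Cd163, a haemoglobin scavenger receptor, by 0.57 ± 0.20 (adjusted p = 0.15). The mean of the list was 8.44, 8.82 and 9.87 at 12 weeks and 7.89, 8.32 and 8.58 at 2 weeks. Replicate 1 held that highest 12-week value, the other 12-week mice reaching at most 8.99. Without it the median was 0.50, all 18 were still above 0 and 6 had an unadjusted p under 0.05 (7.59% of all genes did in that fit). The array of high Glycam1 at 2 weeks had 9.80. Pf4, a chemokine of platelets also made by some macrophages, passed (0.77 ± 0.19, adjusted p = 0.039) but did not without replicate 1 (0.65, adjusted p = 0.12).

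**Figure D3:**
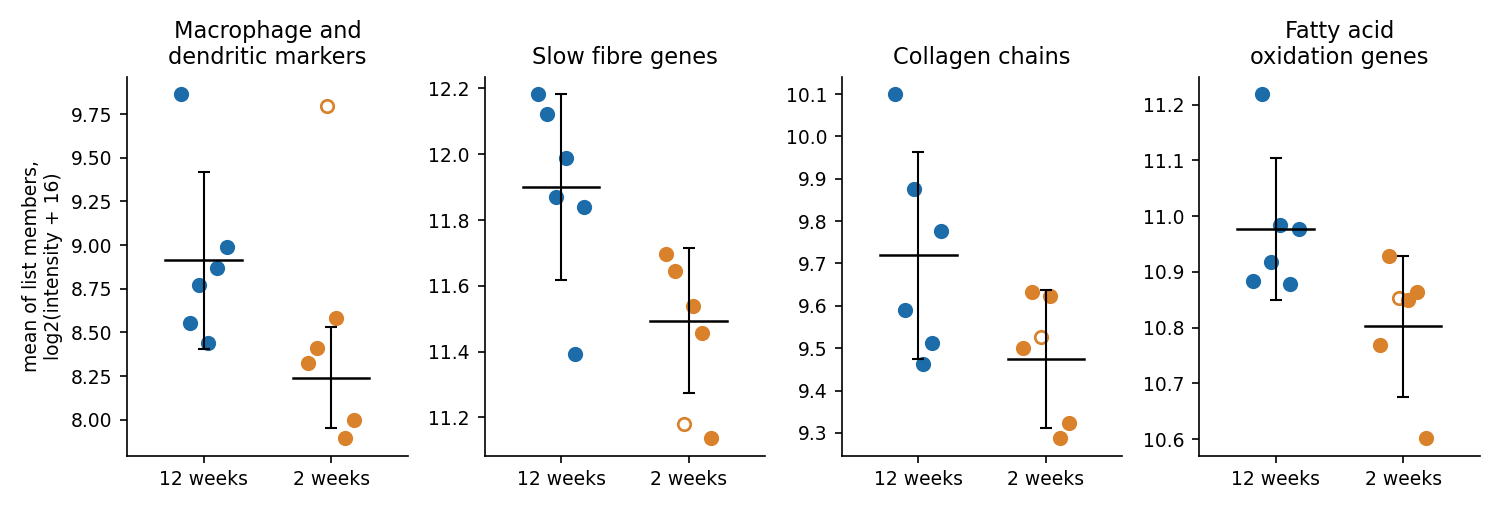
Mean level of 4 gene lists in each sham air mouse (y axes, log2(intensity + 16); 12 weeks left, 2 weeks right), with means ± SD of the filled points. The open point, the 2-week array of high Glycam1, is among the highest for macrophage markers (9.80) and among the lowest for slow fibre genes (11.2).

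The lists of nerve-muscle synapse genes (16 measured), excitation and calcium release genes (18) and Schwann cell and nerve markers (8) held 0 genes that passed. Of all genes tested 0.907% did. At an unadjusted p under 0.05, 4 excitation genes were lower and 2 higher (5.57% and 9.71% of all genes tested). The genes that follow are in none of these lists and were chosen after their values were seen. Slc6a2, the noradrenaline transporter, had 7.26, 7.60 and 7.69 at 12 weeks and 6.36, 6.67 and 6.79 at 2 weeks, without overlap (0.94 ± 0.23, adjusted p = 0.037, and 0.26 with all arrays). Its other 3 probe sets lay below the filter and differed by -0.06, 0.20 and 0.43. Scn2a, a neuronal sodium channel (0.77 ± 0.19, adjusted p = 0.038), and the phosphodiesterase Pde10a (0.78 ± 0.18, adjusted p = 0.032) were higher. Slc6a2 (adjusted p = 0.076) and Scn2a (0.079) did not pass without 12-week replicate 1. Lrtm1, a leucine-rich repeat membrane protein, had 8.37, 8.79 and 8.94 at 12 weeks against 9.24, 9.55 and 9.64 at 2 weeks, lower by -0.75 ± 0.13 without overlap (1.68-fold, adjusted p = 0.0034, and 0.17 with all arrays), and its other probe set differed by -0.47.

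Several lists stayed near the level of all genes. None of 19 atrophy ligases and FOXO targets passed, with a median of 0.05, and the ubiquitin ligases Trim63 (0.00 ± 0.09, adjusted p = 0.99) and Fbxo32 (0.31 ± 0.20, adjusted p = 0.48) did not. None of 21 clock genes passed (median -0.05), with Per1 at -0.07 ± 0.21 and Dbp at 0.02 ± 0.13. The 15 imprinted growth genes instead leaned lower, with 10 below 0 and a median of -0.10, but none passed. At an unadjusted p under 0.05, 3 of them were lower and 0 higher (5.57% and 9.71% of all genes tested). The fetal growth factor Igf2 differed by -0.25 ± 0.10 (adjusted p = 0.21). Fkbp5, which glucocorticoids induce, had groups that did not overlap but missed the threshold (0.70 ± 0.22, adjusted p = 0.11). Lymphocyte markers averaged 5.05 to 5.23 in the 12-week mice and 4.97 to 5.18 in the 5 mice at 2 weeks, below the filter level of 5.71, so that their difference is one of background. Adipocyte markers had a median of -0.05, and -0.41 with all arrays, and Adipoq, the adipocyte hormone adiponectin, differed by -0.05 ± 0.38.

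Mice that breathed smoke gave a comparison of the same times that shares no mouse with this one. Without the arrays of high Glycam1, 92 genes passed between 12 and 2 weeks of smoke (0.745%), 29 higher (0.235%) and 63 lower (0.510%). Of the genes that passed in sham air mice, all but 1 (99.1%) had the same sign there, where 69.9% of all genes tested did. In smoke mice 71 of them had an unadjusted p under 0.05 in the same direction, beside 11.8% of all genes tested in either direction. In all 18 passed in both, which is 16.1% of the sham air genes and 19.6% of the 92. None passed in the opposite direction. The comparisons share no mouse but share each gene's estimate of spread. A gene of low spread passes more readily in each of them, so that these shares are not independent. The differences were smaller for 105 of the sham air genes, with medians of 0.38 in sham air mice and 0.18 in smoke mice over the 73 genes, and of -0.46 and -0.23 over the 39. Since the genes were picked for their sham air values, a smaller value in other mice carries no comparison of the exposures.

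Golm1 averaged 9.65 ± 0.20 after 12 weeks of smoke and 10.20 ± 0.21 after 2 weeks (SD, n = 6 each; difference -0.55 ± 0.10 SE, adjusted p = 0.0035). Actc1 averaged 11.80 ± 0.18 and 12.51 ± 0.20 at the same times (-0.71 ± 0.15, adjusted p = 0.018), and Gbe1 11.06 ± 0.11 and 10.61 ± 0.21 (0.45 ± 0.10, adjusted p = 0.030). Ccdc88c, Noxred1, Egflam and Glrx also passed in both. Myh3 was 0.14 in smoke mice (adjusted p = 0.82) and Slc6a2 0.19 (adjusted p = 0.81), against 0.84 and 0.94 in sham air mice. In the test of the difference between the exposures 0 genes passed, and the lowest adjusted p was 0.94 with all arrays and 1 without those of high Glycam1. An unadjusted p under 0.05 was reached by 251 genes (2.03%) and 309 genes (2.50%) in these fits. The test gave -0.70 ± 0.26 for Myh3 (unadjusted p = 0.0095). The time difference was therefore not shown to differ between smoke and sham air for any gene, Myh3 included.

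**Figure D4:**
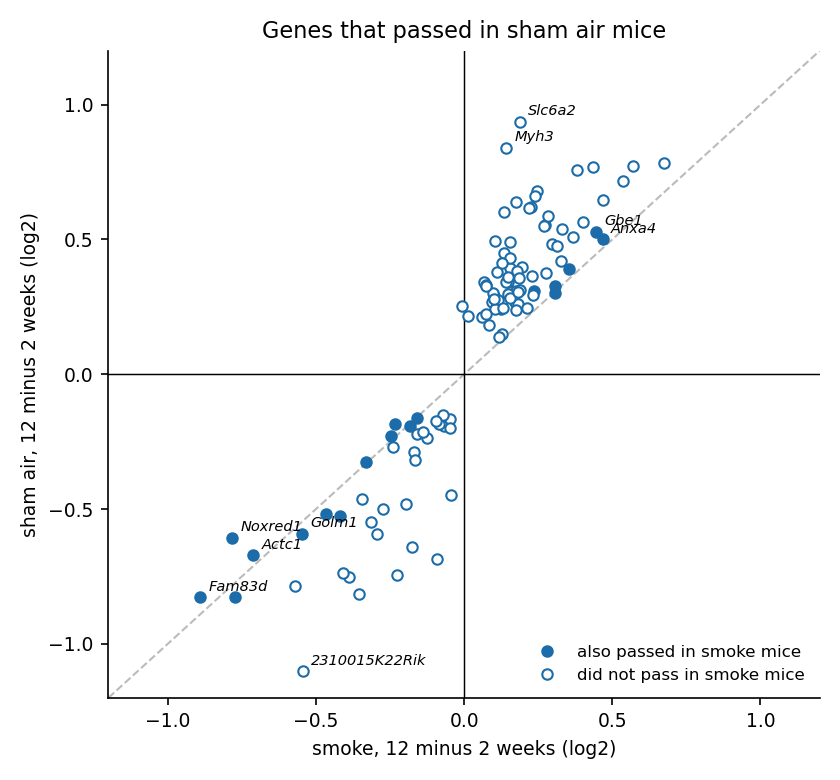
The genes that passed in sham air mice, with their 12 minus 2 week difference there (y axis, log2) against that in smoke mice (x axis, log2). Filled points passed in both, and the dashed line marks equal differences. All but 1 have the same sign on both axes, 105 with a smaller difference in smoke mice.

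The same genes could be followed to other times, 24 weeks of sham air and untreated week 0. Since the untreated mice had no air sessions, time and the sessions cannot be told apart between these groups. Between 24 weeks of sham air and untreated week 0, which again share no mouse with the 12-week and 2-week groups, 1145 genes passed without the arrays of high Glycam1 (9.27%). Of the genes that passed between 12 and 2 weeks, 49 passed in the same direction (43.8% of them and 4.3% of the 1145) and none in the opposite one, and 90.2% had the same sign, where 61.9% of all genes did. Here too each gene's estimate of spread is shared, so that passing in both is not independent. Actc1 averaged 12.61 ± 0.15 untreated, 12.49 ± 0.15 at 2 weeks, 11.82 ± 0.31 at 12 weeks and 11.64 ± 0.43 at 24 weeks (SD; n = 5, 5, 6 and 5 mice). Lrtm1 averaged 9.63, 9.50, 8.75 and 8.92 at these times, and Pi16 8.61, 8.68, 9.35 and 9.52. For these 3 genes the later pair of groups lay apart from the earlier pair, and the 24 weeks against week 0 differences were -0.97, -0.71 and 0.90 (adjusted p = 0.00069, 0.0014 and 0.0014).

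Golm1 followed another course: 10.08 ± 0.11 untreated, 10.22 ± 0.07 at 2 weeks, 9.63 ± 0.15 at 12 weeks and 9.84 ± 0.19 at 24 weeks, so that 12 weeks was the lowest mean, and 24 weeks against week 0 did not pass (-0.24, adjusted p = 0.13). Myh3 averaged 7.52, 7.86, 8.70 and 8.00, with its highest mean at 12 weeks and a difference between 24 weeks and week 0 of 0.48 (adjusted p = 0.11). Noxred1 averaged 7.43, 7.83, 7.23 and 7.65, alternating between neighbouring times (24 weeks against week 0: 0.22, adjusted p = 0.35). Gbe1 averaged 10.59, 10.64, 11.17 and 10.94 (0.35 between 24 weeks and week 0, adjusted p = 0.044). Macrophage markers were higher in 18 of 18 cases between 24 weeks and week 0 as well, with a median of 0.71 and 8 that passed (6.23% of all genes tested were higher and passed), and Cd68 was higher by 1.25 (adjusted p = 0.025). Slow fibre genes were above 0 in 15 of 15, with a median of 0.25. Collagen chains and fatty acid oxidation genes did not lean higher there. The chains were above 0 in 6 of 18, with a median of -0.06, and 1 passed higher and 4 lower (3.04% of all genes tested passed lower). The fatty acid oxidation genes were above 0 in 16 of 30, with a median of 0.01. Over all genes tested 58.4% were above 0, with a median of 0.03.

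**Figure D5:**
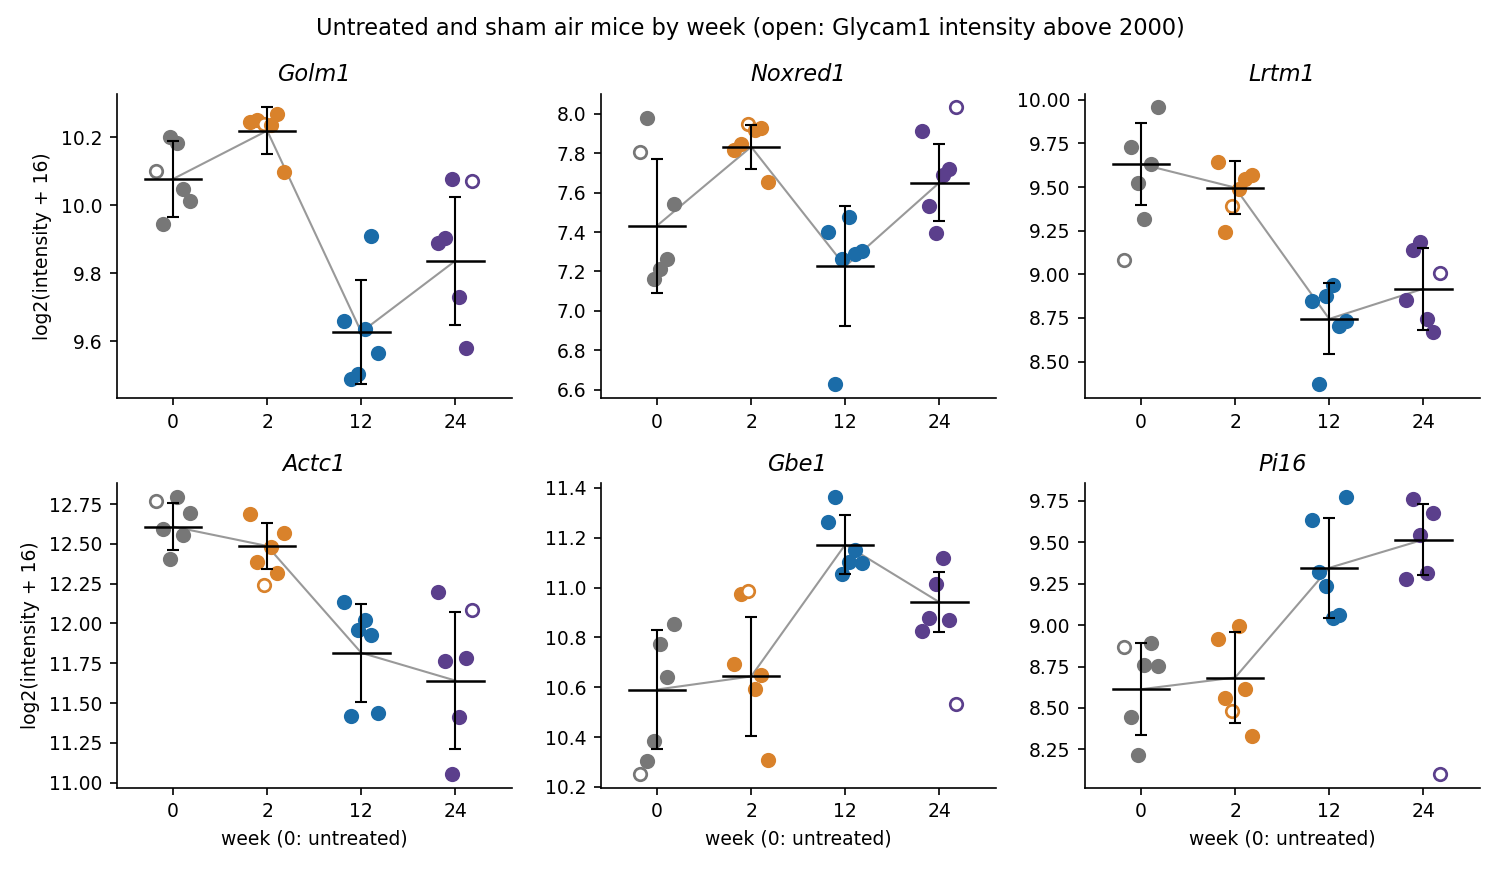
Level of 6 genes in each mouse (y axes, log2(intensity + 16)) at week 0 (untreated) and after 2, 12 and 24 weeks of sham air, with means ± SD and the line joining means of the filled points; open points are arrays of high Glycam1. Actc1 and Lrtm1 are low and Pi16 high at both 12 and 24 weeks, whereas Golm1 and Noxred1 have their lowest means at 12 weeks.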

How the data were processed

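RNA of gastrocnemius sections was amplified, biotin-labelled and hybridised to 1-colour arrays, per the labels' protocols. The deposited table holds probe set intensity values on a linear scale, summarised by the authors in a way that is not stated in the sources used here. They ran from -20.05 to 15890, with array medians of 62.5 to 77.5. Precision is limited by how many arrays a group has. Values were floored at -15, 16 was added and log2 taken. Of 45037 probe sets, 34945 had 1 gene symbol, 932 several and 9160 none. Each gene kept its brightest probe set by mean level (18193 genes), and those above the 40th percentile of probe set means (5.71) were tested (12351 genes).

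R 4.3.3 with limma 3.58.1 (and version 1.17.8 of data.table) fitted 1 model with 9 groups (55 mice; the 2 arrays of 1 smoke mouse averaged) with eBayes, with all arrays and with the 44 whose Glycam1 intensity did not exceed 2000 (46 and 35 residual degrees of freedom), and adjusted p by Benjamini-Hochberg over all genes tested. Replicate numbers only name mice. Figures used Python 3.11.15 and matplotlib 3.10.9. The fit was tested on simulated data. The members and gene lists were chosen with earlier results of these data known. Genes were named by rule: the 8 of lowest p each way with all arrays, up to 4 of lowest p in each list and a fixed set; further genes that passed were picked after their values were seen. Genes measured by probe sets with the suffix _x_at are not named. Alternatives covered scaling, filter, pseudocount, probe sets, weights, covariates and each mouse left out.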

Additional observations from a re-analysis of the deposited data

Results flagged for a closer look

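In 30 of 226 sets of values examined (the named genes and the list means, at 12 and at 2 weeks), 1 mouse lay apart from the other 5 of its group by Dixon's test; chance alone gives about 1 in 20. Glycam1 itself and the list that holds it were left out, since Glycam1 sets that array apart by rule. Of the 30, 15 concerned the 2-week array of high Glycam1 and 6 the 12-week replicate 1.

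At 12 weeks, replicate 1 stood above the other mice for Cd68 (9.76 against 8.08 to 8.42), Col5a1 (9.89 against 8.90 to 9.26), Dpp4 (10.53 against 9.91 to 10.00), Morrbid (9.35 against 8.96 to 9.04), Slc35f6 (9.52 against 9.24 to 9.34) and the mean of cell cycle and replication genes (8.63 against 7.56 to 7.81). Replicate 2 stood below the rest for Noxred1 (6.63 against 7.26 to 7.48), Casq1 (12.73 against 12.89 to 12.96) and Prkag3 (11.94 against 12.36 to 12.46). The same mouse stood above them for Plin5 (10.61 against 9.32 to 9.79) and the mean of fatty acid oxidation genes (11.22 against 10.88 to 10.98). Replicate 5 was low in Myh7 (11.95 against 12.64 to 12.96) and replicate 3 in Slc6a2 (7.26 against 7.58 to 7.69).

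At 2 weeks, replicate 3, the array of high Glycam1, stood high in Ramp2 (10.20 against 9.48 to 9.72) and Mmrn2 (10.46 against 9.75 to 9.86), and low in Gamt (7.89 against 8.50 to 8.60). Its list means were high for lymphocyte markers (9.27), macrophage and dendritic markers (9.80), endothelial markers (9.26), interferon response genes (8.54), cell cycle and replication genes (8.27), lipogenesis and sterol synthesis genes (11.33), thyroid hormone response genes (10.79), AHR and NRF2 target genes (9.63), VEGF, angiopoietin and apelin genes (9.35) and cytosolic ribosomal proteins (12.34). They were low for excitation and calcium release genes (10.78) and mitochondrial ribosomal proteins (10.62). Replicate 6 had the lowest Golm1 of its group (10.10 against 10.23 to 10.27), and replicate 2 the highest mean of Schwann cell and nerve markers (9.79 against 8.40 to 8.84).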

How the results depend on the processing

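With all arrays 0 genes were higher and 1 lower between 12 and 2 weeks of sham air. The counts of higher and lower genes were 0 and 2 under quantile normalization or with every probe set, 4 and 1 with median centring, 1 and 2 with the mean of a gene's probe sets, 1 and 3 with a filter at the 60th percentile or with the title number as a covariate, 4 and 3 from the groups of the comparison alone, 4 and 4 at an adjusted p under 0.1, 12 and 11 with a covariate for the lymphocyte mean, 73 and 39 once the arrays of high Glycam1 were left out, and 165 and 76 with array weights. Leaving out 1 mouse gave 0 to 1 higher and 1 to 3 lower (1 and 3 without 12-week replicate 3 or 5 or 2-week replicate 2, and 1 and 1 without 2-week replicate 3). The 73 and 39 genes became 5 and 6 from the groups alone, 24 and 19 with no filter, 83 and 93 with the mean of probe sets, 167 and 22 with median centring, 166 and 94 with the title number as a covariate and 219 and 117 at 0.1. All settings tried on that set were added after the data were seen. Leaving out 1 mouse more gave 5 to 102 higher and 5 to 67 lower: 21 and 26, 34 and 16, 102 and 67, and 20 and 20 without 12-week replicate 1, 2, 5 or 6, and 24 and 18, 14 and 13, and 5 and 5 without 2-week replicate 1, 5 or 6. Among the alternatives to the fit with all arrays, where Golm1 alone passed, no named gene passed with the opposite sign. Smoke at 12 against 2 weeks gave 21 genes, and 12 with median centring, 52 at 0.1, 92 without the arrays of high Glycam1 and 509 with array weights. Without 1 mouse it gave 6 to 45. The difference between exposures stayed at 0 in all its alternatives and in each fit without 1 mouse (unadjusted p was under 0.05 in 251 genes with all arrays). Sham air at 24 weeks against untreated mice gave 289, and 105 from the groups alone, 174 with median centring, 1145 without the arrays of high Glycam1 and 1164 with the lymphocyte covariate. Sham air at 24 against 12 weeks gave 4, and 11 without the arrays of high Glycam1 and 0 from the groups alone, where 999 genes had an unadjusted p under 0.05 with every group in the model. For 24 against 2 weeks, 27 became 9 from the groups alone, 11 with median centring, 84 with the lymphocyte covariate and 335 without those arrays. For 2 weeks against untreated mice, 64 became 149 with the lymphocyte covariate and 236 without those arrays. The mice of the groups are different animals, but 3 numbers in their names (4, 5 and 8) occur at both 12 and 2 weeks. The deviations of same-numbered mice from their group means had correlations of -0.1, -0.025 and 0.31 across genes. These were taken with all arrays, and number 4 at 2 weeks is the array of high Glycam1. They therefore do not decide whether the number pairs mice. With that number as a replicate block, added after the data were seen, 0 higher and 0 lower genes passed with all arrays (553 at an unadjusted p under 0.05), and 1 higher and 0 lower without those of high Glycam1 (1432 at an unadjusted p). The cause of these shifts was not tested. Levels near the filter, below about 6, rest on signal close to background, and small folds of bright genes such as Casq1 and Ampd1 rest on a narrow spread between mice.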
